A study of Mus musculus with 11 samples.

Results

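The gap junction connexins described here are the 5 genes Gjb2, Gjb6, Gja1, Gjb5 and Gjc1, chosen by name and located on the microarray through the RefSeq accession of each probe. Each of them had 1 probe among the 55681 probes of the array, which named 20284 genes, and all 5 probes passed the filter on dim signals that kept 47997 probes. The RNA came from 3 kinds of mouse cells. The cochlear sensory epithelium (CSE) was dissected from ICR mice at postnatal day 1, with the spiral ligament and stria vascularis separated off and 20 cochleae pooled per preparation. Otospheres (OS) were floating spheres grown from dissociated CSE of the same strain and age with bFGF at 10 ng/ml and IGF1 at 50 ng/ml. They were cultured for 4 or 5 days, passaged once, grown for 4 or 5 days more and filtered to leave mainly solid spheres. The embryonic stem cells (ESCs), of the lines G4-2 and D3 at passage 13, were kept undifferentiated with LIF and without feeder cells. Each ESC line was thus a single sample, and the CSE and otosphere samples were mixtures of cells from several animals.

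Connexins are membrane proteins with both ends inside the cell. Sets of them form a hemichannel, and hemichannels of neighbouring cells dock into a gap junction channel that lets ions and small metabolites pass. In the cochlea, connexin 26 (Gjb2) and connexin 30 (Gjb6) join the supporting cells of the sensory epithelium, and the fibrocytes and other non-sensory cells around it, into networks linked to the circulation of potassium and to metabolite supply. Both genes have been linked to deafness. Connexin 43 (Gja1) is the most widespread connexin of the body, connexin 45 (Gjc1) is best known from the heart and vessels, and Gjb5 encodes a connexin of skin and trophoblast.

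Gjb2 and Gjb6 lie next to each other on the same chromosome, and they are the pair whose signal fell together from CSE to otospheres, so the 250 bases before the RefSeq start of each are shown (mouse build GRCm38.p6, chr14:57104703-57104952 for Gjb2 and chr14:57133612-57133861 for Gjb6, both on the minus strand, written 5′ to 3′). Capitals mark matches to GGGCGG, the core of a GC box, or to its reverse complement CCGCCC.

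Gjb2: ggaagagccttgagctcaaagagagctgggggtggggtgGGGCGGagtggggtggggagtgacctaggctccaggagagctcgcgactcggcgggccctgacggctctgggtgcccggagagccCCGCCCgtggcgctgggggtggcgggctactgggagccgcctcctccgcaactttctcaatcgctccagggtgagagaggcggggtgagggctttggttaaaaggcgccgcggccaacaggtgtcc

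Gjb6: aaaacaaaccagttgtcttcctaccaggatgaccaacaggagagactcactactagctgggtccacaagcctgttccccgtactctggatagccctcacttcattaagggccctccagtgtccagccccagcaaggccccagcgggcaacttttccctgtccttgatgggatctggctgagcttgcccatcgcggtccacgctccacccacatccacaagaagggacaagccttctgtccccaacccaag

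The Gjb2 window held 2 matches and the Gjb6 window 0, while 32.7% of the 32851 RefSeq windows of this length held at least 1. Neither window held CCAAT, which was present in 33.8% of the windows, nor TATAAA, present in 12.4%, with both strands searched. The share of G and C was 69.2% for Gjb2 and 56.8% for Gjb6, against a median of 52.4% over the windows. These matches describe letters only, and binding was not measured.

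The data were 11 single-colour arrays, 6 of otospheres, 3 of CSE and 2 of ESCs, on 2 slides that each held all 3 groups. Between 55.1% and 71.6% of the spots on an array carried the scanner's flag for a signal well above background, and precision is limited by how few arrays there were. OS1 and OS2 differed by 0.938 times the noise between spots of the same probe and OS4 and OS5 by 0.438 times, against 1.73 to 3.54 times for the other 17 pairs within a group, so each of these 2 pairs was averaged and counted as 1 sample. The comparisons therefore rest on 4 otosphere, 3 CSE and 2 ESC samples. The labels name replicates without saying whether they came from separate preparations, and the p-values measure the spread between these samples. Values are log2 normalized signals. Group differences come from limma with Benjamini-Hochberg adjustment over the 47997 probes and a threshold of 0.05. In such bulk samples, fewer cells of a type and less RNA per cell cannot be told apart. The labels were checked against markers. Of 8 ESC markers, 7 were lower in otospheres and in CSE than in ESCs, among them Pou5f1 at 14.14 in ESCs against 5.43 and 5.40. The other was Nanog, at means of 9.82 for otospheres and 10.03 for CSE, against 8.38 for ESCs (limma adjusted p = 0.105 and 0.0780 against ESCs). These values are those of 1 probe, taken as the brightest for the gene. The paper, with more ESC arrays, lists Nanog as upregulated only in ESCs, and it found no NANOG protein in otospheres. The level of Nanog from this probe is therefore uncertain. All 12 supporting cell and all 12 hair cell markers were well above background on at least 1 CSE array. Of each list, 4 were so on no ESC array and 1 on no otosphere array, so detection alone separates the groups only in part.

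Among the members, 2 fell and 0 rose from CSE to otospheres, and 3 did not pass the test. Over all probes tested, 6.19% fell and 4.84% rose. Against ESCs, 2 members were higher in otospheres, 2 were lower and 1 did not pass, while 12.1% of all probes were higher and 15.6% lower. CSE differed from ESCs with 2 members higher, 1 lower and 2 not past the threshold, against 13.2% and 15.6% of all probes. Gjb2 and Gjb6 were the members higher than in ESCs in both comparisons, and Gja1 was lower in both.

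**Figure D1:**
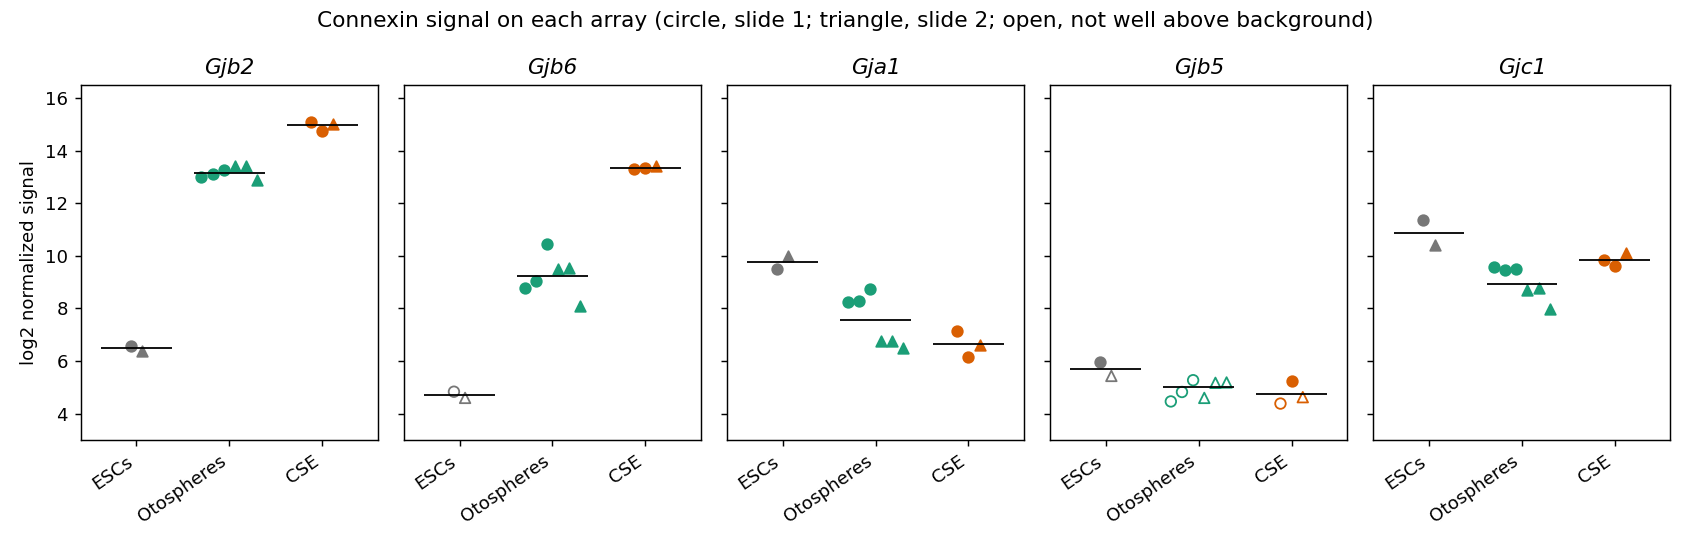
Log2 normalized signal of the 5 connexins on each of the 11 arrays, by group, with the mean over samples as a line. Circles are arrays of slide 1, triangles those of slide 2, and open symbols were not well above background. Gjb2 and Gjb6 step up from ESCs through otospheres to CSE, while Gja1 and Gjc1 are highest in ESCs.

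Gjb2 encodes connexin 26, the connexin most often mutated in inherited deafness. Its log2 signal was 6.56 and 6.40 in the ESC samples. It was 13.05 in the mean of OS1 and OS2, 13.26 in OS3, 13.42 in the mean of OS4 and OS5 and 12.90 in OS6. In CSE it was 15.09, 14.75 and 15.03. The order was ESCs, otospheres, CSE in every sample, and no groups overlapped. Otospheres had a mean of 13.16 ± 0.23 (SD, n = 4) and CSE of 14.96 ± 0.18 (SD, n = 3), which differed by -1.80 (SE 0.18, limma adjusted p = 4.57e-04), or 3.47-fold lower in otospheres with a 95% interval of 2.63 to 4.59. Compared with the ESC mean of 6.48 ± 0.12 (SD, n = 2), Gjb2 was 103-fold higher in otospheres (log2 difference 6.68, limma adjusted p = 2.62e-07) and 356-fold higher in CSE (8.48, limma adjusted p = 1.24e-07). Gjb2 thus lay far above ESCs in the spheres, though below the tissue they were grown from. Within each slide the otosphere minus CSE difference was -1.76 and -1.87.

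Gjb6 encodes connexin 30, which forms mixed channels with connexin 26 in the cochlea. Its log2 signal was 8.91 in the mean of OS1 and OS2, 10.44 in OS3, 9.52 in the mean of OS4 and OS5 and 8.08 in OS6. In CSE it was 13.29, 13.32 and 13.43. Every otosphere sample was below every CSE sample, and otospheres spread over a far wider range than CSE, with an SD of 1.00 (n = 4) against 0.07 (n = 3). The means were 9.24 and 13.35, a difference of -4.11 (SE 0.46, limma adjusted p = 8.74e-04), or 17.2-fold lower in otospheres with a 95% interval of 8.30 to 35.7. In ESCs Gjb6 was not well above background on either array, at 4.83 and 4.60. The otosphere mean was therefore at least 14.5-fold above ESCs (limma adjusted p = 3.18e-04) and the CSE mean at least 250-fold (limma adjusted p = 1.50e-05), each bound being set by the lowest signal that counted as well above background on the ESC arrays. These bounds leave out the spread between samples. The 95% intervals of the fold, without that floor, were 10.1 to 52.8 for otospheres and 166 to 951 for CSE. Within each slide the otosphere minus CSE difference was -3.63 and -4.63.

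The fall of Gjb6 was larger than that of Gjb2 in size, though the test of that difference did not pass. Gjb2 minus Gjb6 on the log2 scale was 4.14, 2.82, 3.90 and 4.82 in the otosphere samples and 1.80, 1.43 and 1.60 in the CSE samples. The groups did not overlap, and the lowest otosphere value was that of OS3, the sample with the highest Gjb6. The means of 3.92 ± 0.83 (SD, n = 4) and 1.61 ± 0.19 (SD, n = 3) differed by 2.31, with an exact two-sided permutation p of 0.0571, where 0.0286 is the smallest that 4 against 3 samples can give. With otospheres wholly above CSE, the observed split was already the most extreme in its direction. The test thus could not pass in that direction for these values, and no conclusion is drawn from it.

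Markers of cochlear cell types were read beside these falls. Of 12 supporting cell markers, 9 fell from CSE to otospheres and 0 rose, with a median difference of -2.68 against 0.02 over all probes, and their summed linear signal was 27200 to 60500 in otosphere samples against 150000 to 193000 in CSE. Such sums weigh the brightest probes most. By mean these were Tectb in CSE (16.40, against 10.53 in otospheres) and S100a1 in otospheres (14.37, against 12.90 in CSE). Only Prox1 among the 12 markers was well above background on no otosphere array. Of 10 markers of the stria vascularis and spiral ligament, 5 fell and 1 (Kcnq1) rose, with a median of -2.06 and summed signals of 3310 to 4620 in otospheres and 11400 to 21400 in CSE. Of 10 fibroblast and otic mesenchyme markers, 1 (Col1a1) fell, 0 rose and 9 did not pass the test, with summed signals of 82700 to 288000 and 343000 to 510000. Their median difference was still -2.25. The part of these cell types in the falls of Gjb2 and Gjb6 was not tested.

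Gja1 encodes connexin 43, and its probe was spotted 10 times on each array, with an SD of 0.07 to 0.14 between its spots. Its log2 signal was 9.49 and 10.01 in ESCs, 8.25 in the mean of OS1 and OS2, 8.75 in OS3, 6.76 in the mean of OS4 and OS5 and 6.49 in OS6. In CSE it was 7.16, 6.16 and 6.63. ESCs lay above every other sample, while the otosphere samples of the second slide fell within the range of CSE and those of the first slide lay above it. The otosphere mean of 7.56 ± 1.11 (SD, n = 4) was below the ESC mean of 9.75 ± 0.37 (SD, n = 2) by 4.56-fold (log2 difference -2.19, SE 0.62, limma adjusted p = 0.0284), and the CSE mean of 6.65 ± 0.50 (SD, n = 3) was 8.60-fold below it (-3.11, limma adjusted p = 0.00698).

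Otospheres and CSE did not differ beyond their spread in Gja1. The difference was 0.92, with a 95% interval of -0.33 to 2.16 and a limma adjusted p of 0.409. Within slides it was 1.84 on the first and 0.000583 on the second. On the log2 scale the otosphere samples averaged 8.50 on the first slide and 6.63 on the second, against 6.66 and 6.63 for CSE. The slides also held different otosphere samples, so slide and sample cannot be told apart. Against ESCs the otosphere difference was -0.99 within the first slide and -3.38 within the second, and its adjusted p was 0.0743 and 0.149 without the first and the second ESC sample and 0.0648 without OS4 and OS5.

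Gjc1 encodes connexin 45, a connexin of embryonic tissues, conducting heart muscle and vessels. Its log2 signal was 11.35 and 10.42 in ESCs, 9.52 in the mean of OS1 and OS2, 9.51 in OS3, 8.74 in the mean of OS4 and OS5 and 7.98 in OS6. In CSE it was 9.86, 9.61 and 10.10. The order was ESCs, CSE, otospheres, without overlap between groups. Otospheres (8.94 ± 0.74, SD, n = 4) were 3.85-fold below ESCs (10.88 ± 0.66, SD, n = 2), a log2 difference of -1.95 (limma adjusted p = 0.0115), which was -1.48 with an adjusted p of 0.102 without the first ESC sample. The neighbouring steps did not pass the test. Otospheres were 0.92 below CSE (9.86 ± 0.25, SD, n = 3; limma adjusted p = 0.217), with -0.22 within the first slide and -1.75 within the second. CSE minus ESCs was -1.03 (limma adjusted p = 0.152), with -1.61 and -0.31 within slides.

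Gjb5, the connexin of skin and trophoblast, was close to background throughout. It was well above background on 1 ESC array, 1 CSE array and 0 otosphere arrays, and it passed the filter through 4 of the 11 arrays. Its log2 signal was 5.97 and 5.43 in ESCs, 4.64, 5.27, 4.88 and 5.18 in the otosphere samples and 4.38, 5.25 and 4.62 in CSE. Otospheres and CSE overlapped, and both ESC samples lay above them. The otosphere minus CSE difference was 0.24 (limma adjusted p = 0.721). ESCs were at least 1.49-fold above otospheres by the same kind of bound, with a limma adjusted p of 0.116, and the CSE minus ESC difference of -0.95 had a limma adjusted p of 0.0506. Neither difference from ESCs passed the threshold, and the latter did so in 3 of 18 alternative settings.

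**Figure D2:**
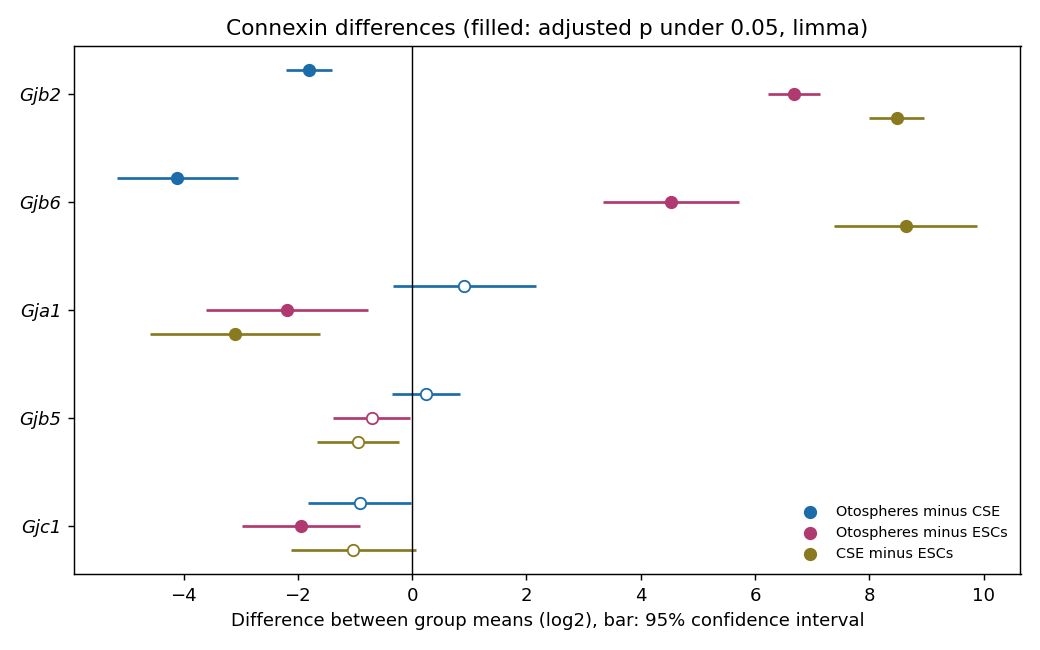
Difference between group means of each connexin on the log2 scale with its 95% confidence interval, for the 3 comparisons, which share samples. Filled points passed the adjusted p threshold of 0.05 in limma. Only the intervals of Gjb2 and Gjb6 lie wholly above 0 against ESCs, and only these 2 members passed the threshold from CSE to otospheres. The Gjc1 interval of otospheres minus CSE, -1.83 to -0.01, also lies below 0, but its point is open. The intervals are not adjusted over the probes.

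With the members, 21 genes of the connexin and pannexin family are reported here, and 20 of them were kept, all but Gje1. They are not the whole family. From CSE to otospheres, 5 of these 20 fell and 15 did not pass, against 6.19% of all probes that fell. Besides Gjb2 and Gjb6, the falls were Gja4 (connexin 37, of arterial endothelium), Gjc3 (connexin 29, of myelinating glia) and Gjd2 (connexin 36, of electrical synapses). Against ESCs, otospheres had 2 of the 20 higher (Gjb2 and Gjb6) and 2 lower (Gja1 and Gjc1), where 12.1% and 15.6% of all probes were higher and lower. CSE had 5 higher (Gjb2, Gjb6, Gjc3, Gjd2 and Panx3) and 1 lower (Gja1), where 13.2% and 15.6% of all probes were. Of these, Panx3 was close to background, at means of 5.26 in CSE and 4.59 in ESCs (limma adjusted p = 0.0228). It was well above background on 1 CSE array and on 0 arrays of ESCs or otospheres. Gja5 (connexin 40) had 2 probes that disagreed, with otosphere minus CSE differences of 1.46 for the brighter (limma adjusted p = 0.0687) and -0.09 for the other (0.842).

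Gja4 was 6.93, 6.58, 6.39 and 6.74 in the otosphere samples and 8.77, 7.35 and 8.53 in CSE, a difference of -1.56 (SE 0.35, limma adjusted p = 0.0222) that lost its call in 4 of 21 alternatives. These were the fit with the replicate number as a block (-1.40, adjusted p = 0.0669) and those without OS4 and OS5 (-1.47, 0.0670), the first CSE sample (-1.28, 0.0961) or the third (-1.40, 0.0954). Gjc3 was 6.57, 6.47, 5.67 and 5.62 in the otosphere samples and 8.28, 8.73 and 7.62 in CSE, a difference of -2.13 (limma adjusted p = 0.00559). Gjd2 was well above background on no array of otospheres or ESCs, and the CSE mean was at least 2.24-fold above otospheres (limma adjusted p = 0.00335). This bound leaves out the spread between samples, and the confidence interval of the fold, without that floor, was 1.86 to 3.51. Gja4, Gjc3 and Gjd2 all had otosphere samples wholly below CSE. Endothelial markers fell in 6 of 9 cases and rose in 0, with summed signals of 7660 to 11100 in otospheres and 16500 to 21000 in CSE. Of 9 Schwann and satellite glia markers, 5 fell and 1 rose, with summed signals of 18500 to 30300 and 50400 to 65900. Their part in the falls of Gja4 and Gjc3 was not tested.

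**Figure D3:**
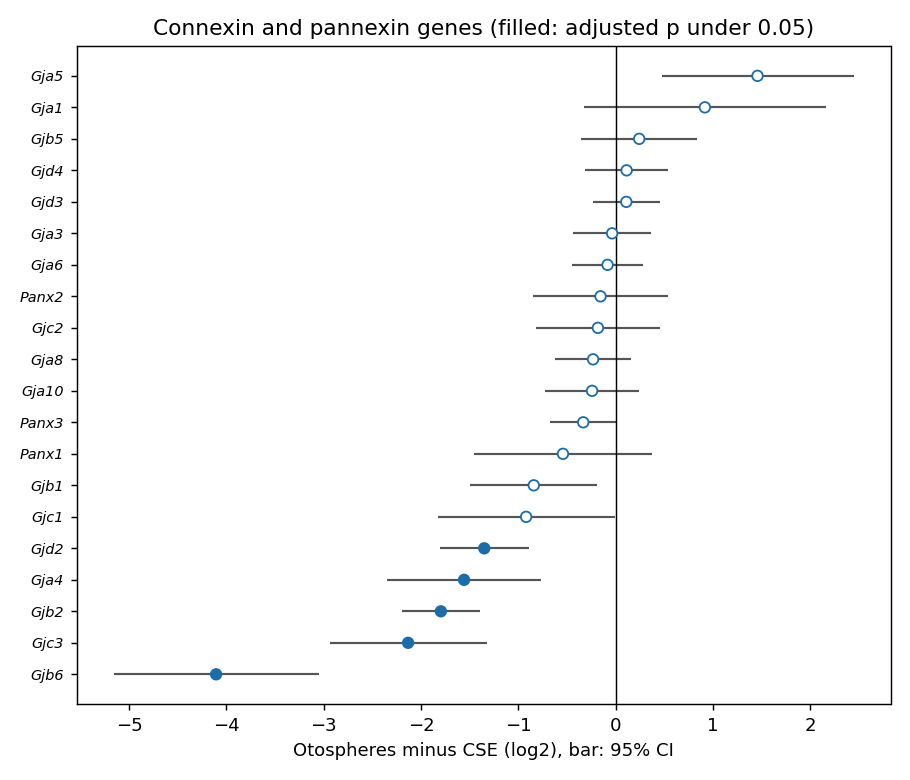
Otosphere minus CSE difference (log2) of the 20 connexin and pannexin genes reported here and kept, with the 95% confidence interval, in order of size. Filled points passed the adjusted p threshold of 0.05. Gjb6, Gjc3, Gjb2, Gja4 and Gjd2 are the filled points, all below 0.

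The genes that flank the members on the chromosome were measured too. Within 250 kb of Gjb2 and Gjb6 in the RefSeq annotation (GRCm38.p6) lie Gja3 (connexin 46, best known from the lens), Cryl1 and Zmym2. None of these 3 passed the test between otospheres and CSE, with differences of -0.04 (limma adjusted p = 0.958), -0.56 (0.158) and 0.13 (0.915). Cryl1 was higher than in ESCs in otospheres (1.12, limma adjusted p = 0.00851) and in CSE (1.69, 0.00136). Gja3 stayed between 5.39 and 6.04 in all samples. Near Gjb5 lie Gja4, described above, Dlgap3, Tmem35b and Zmym6, among others. Dlgap3 fell by 1.83 (limma adjusted p = 0.00228), and Tmem35b and Zmym6 did not pass the test (0.618 and 0.999).

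**Figure D4:**
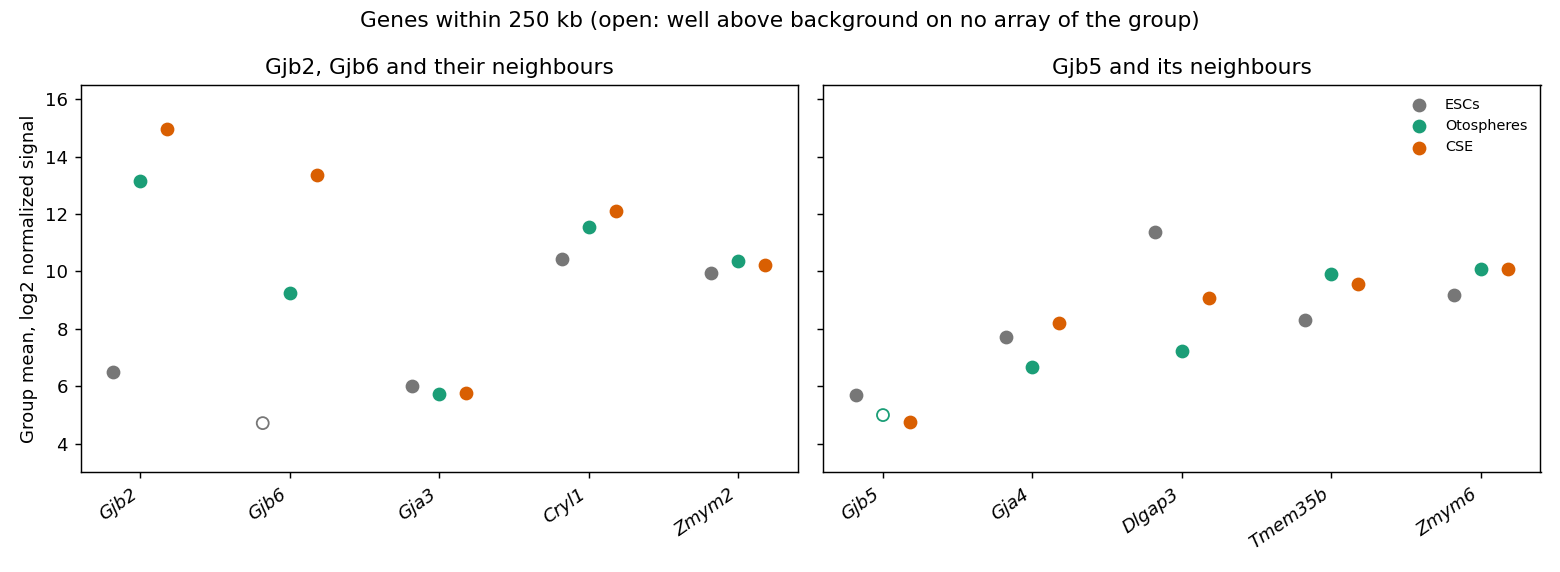
Group mean log2 signal of Gjb2, Gjb6 and the genes within 250 kb of them (left) and of Gjb5 and 4 of its neighbours (right). Open points mark genes well above background on no array of that group. Levels of different probes are not comparable, and only the spread of the 3 colours within a gene is to be read. Gjb2 and Gjb6 spread widely beside Gja3 and Zmym2, and Gja4 and Dlgap3 are lowest in otospheres.

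The genes whose pattern was most like that of a member were found by Pearson's correlation over the 9 samples among 18565 genes, as a description only, since the samples fall into 3 groups and share their arrays. For Gjb2 they were Col11a1 (0.997), a fibrillar collagen chain, Pou3f3 (0.996), a transcription factor, and Fbn2 (0.996), a fibrillin. For Gjb6 they were Podxl2 (0.994), 2610206C17Rik (0.993) and Lrrc75b (0.992). For Gja1 they were Spata25 (0.980), Napepld (0.979) and Il1r2 (0.978), and for Gjc1 Sapcd2 (0.971), Etv4 (0.969) and Nemp2 (0.968). For the dim Gjb5 they were Bmp8a (0.974), Adra2b (0.954) and Gm4349 (0.954).

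Potassium that enters hair cells is thought to be taken up by supporting cells, passed through connexin channels and returned to the endolymph by the stria. Of the list for this route and the cochlear fluids, 24 genes are reported, all measured, with 4 rises, 5 falls and 15 not past the test from CSE to otospheres and a median of -0.30. Over all probes tested, 4.84% rose and 6.19% fell, with a median of 0.02. Falls were seen in Coch (cochlin, a matrix protein of the spiral ligament), from 10.97 ± 0.70 (SD, n = 3) to 6.18 ± 0.62 (SD, n = 4), a difference of -4.79 (limma adjusted p = 0.00117), and in Kcnj10 (the potassium channel Kir4.1 of supporting cells and the stria; -2.98, 8.46e-04). Slc12a2, the Na-K-Cl cotransporter NKCC1, fell by 2.06 (limma adjusted p = 0.00803). The largest rises were in P2rx2 (an ATP-gated channel; 4.87, limma adjusted p = 2.48e-04), Aqp5 (a water channel; 4.23, 9.58e-04), Atp1b1 (a sodium pump subunit; 1.71, 0.00687) and Kcnq1 (the potassium channel of marginal cells; 1.13, 0.0217). The Kcnq1 call was kept in only 10 of 21 alternatives. It was lost, among others, without any 1 of OS1 and OS2, OS4 and OS5, OS6 or the 3 CSE samples, with values of 1.01 to 1.23 and limma adjusted p of 0.0506 to 0.0769. Against ESCs 11 of the 24 were higher in otospheres and 2 lower, with a median of 0.98, and 12 were higher in CSE and 1 lower, with a median of 1.28. Of all probes, 12.1% were higher and 15.6% lower in otospheres, with a median of -0.03, and 13.2% and 15.6% in CSE, with -0.06.

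Of 30 genes whose proteins bind, traffic or phosphorylate connexins or share their junctions, all measured, 9 rose, 2 fell and 19 did not pass from CSE to otospheres, with a median of 0.21. Over all probes tested, 4.84% rose and 6.19% fell, with a median of 0.02, so the falls of the list lay near the general share. The rises of the list included the epithelial and desmosomal junction genes Dsp, Pkp2, Jup, Cdh1 and Tjp3. Of 6 simple epithelium markers, which include Cdh1, all 6 rose as well, with a median of 2.32 and summed signals of 253000 to 675000 in otospheres and 38600 to 66900 in CSE. Their part in the rises of the partner list was not tested. The falls were Cdh2 (N-cadherin; -2.54, limma adjusted p = 0.00146) and Dbn1 (the actin-binding drebrin; -1.25, 0.00278). The largest rises were Dsp (desmoplakin; 2.86, limma adjusted p = 3.16e-04), Ctnnd1 (p120 catenin; 1.61, 0.00253), Cav2 (caveolin 2; 1.60, 0.0414) and Tjp3 (the scaffold ZO-3; 1.57, 0.0292). The Cav2 call was kept in 9 of 21 alternatives and that of Tjp3 in 13. Without any 1 of OS1 and OS2, OS4 and OS5, OS6 or the 3 CSE samples both were lost, with values of 1.39 to 1.70 for Cav2 (limma adjusted p 0.0801 to 0.122) and 1.43 to 1.75 for Tjp3 (0.0509 to 0.108). The scaffold ZO-1 (Tjp1), a known partner of connexin 43, was among those that did not pass. The number called in this list was 5 to 7 without any 1 of OS1 and OS2, OS4 and OS5, OS6 or the 3 CSE samples. Against ESCs the list had 9 genes higher and 1 lower in otospheres, and 10 higher and 5 lower in CSE. Of all probes, 12.1% were higher and 15.6% lower in otospheres, and 13.2% and 15.6% in CSE. The share of the list that was lower in CSE was thus near that of all probes.

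**Figure D5:**
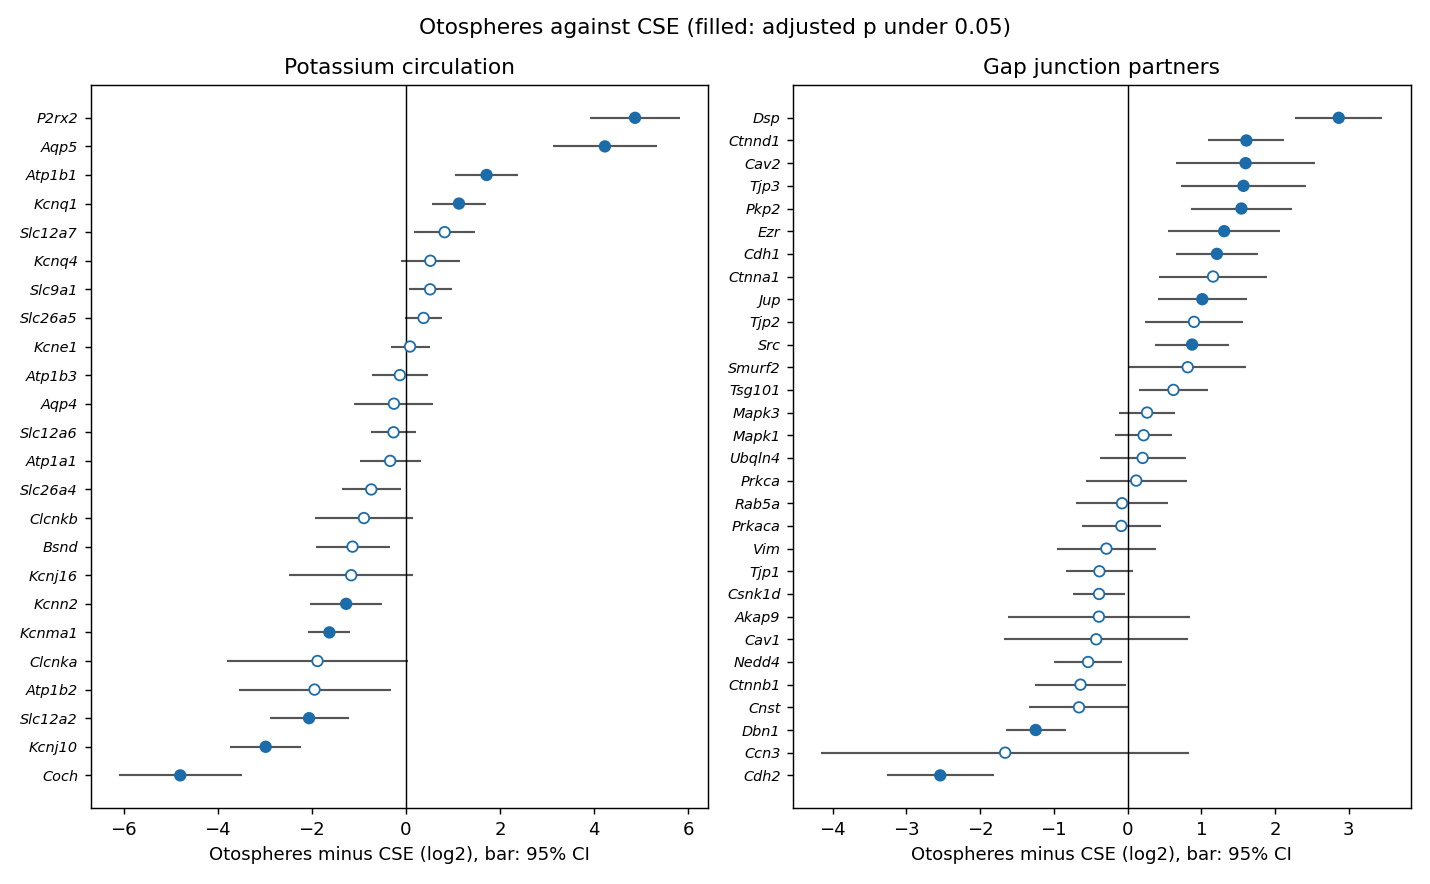
Otosphere minus CSE difference (log2) with its 95% confidence interval for the 24 potassium circulation genes reported (left) and the 30 gap junction partners (right). Filled points passed the adjusted p threshold of 0.05. P2rx2 and Aqp5 are highest and Coch lowest on the left, and Dsp is highest and Cdh2 lowest on the right.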

How the data were processed

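RNA of 11 samples (6 OS, 3 CSE, 2 ESCs) had been labelled with Cy3 and hybridized to single-colour Agilent mouse arrays. The deposited scanner files, made by Feature Extraction 10.7.3.1, give for each spot a median signal intensity and that of its local background, without normalization between arrays, and the deposited table holds log2 values that the authors background-corrected and quantile-normalized with limma and filtered on dim probes. Here intensities were background-corrected (normexp, offset 16) with limma 3.58.1 in R 4.3.3, converted to log2, quantile-normalized and averaged over spots, without outlier-flagged spots and controls. The paper's text does not give the offset. Probes at least 10% over the 95th percentile of 308 negative controls on at least 2 arrays were kept, 47997 of 55681. Symbols came from RefSeq accessions (26762 probes matched). The 3 groups were fitted together in limma, with arrays that differed by less than spot noise averaged. The Gjb2 minus Gjb6 test, added after the data were seen, was an exact two-sided permutation test. The fit was tested on simulated data.

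The members and lists were chosen with earlier results of these data known. All 5 members are named, with connexins past the threshold between otospheres and CSE, genes within 250 kb of a member, the 4 largest rises and falls of the other lists past the threshold without overlap between groups, and the 3 genes most correlated with each member. Of a gene's probes the brightest was used, and members had 1 probe. Some genes that this rule or the lists name are not reported here, and counts of the connexin and potassium lists leave them out. Genes around Gja1 and Gjc1 were measured and are not described. Marker lists for hair cells, supporting cells, ESCs, fibroblasts and otic mesenchyme, stria and ligament, glia, endothelium, smooth muscle and pericytes, stratified and simple epithelium, macrophages and erythroid cells were counted with the same fit. Of the markers not described with the results, hair cell markers had 0 rises and 6 falls of 12 from CSE to otospheres, ESC markers 0 and 0 of 8, smooth muscle and pericyte markers 4 and 1 of 8, macrophage markers 0 and 4 of 6 with a probe, stratified epithelium markers 4 and 1 of 10, and erythroid markers 0 and 5 of 7. Alternatives were the offset (0 and 50), scaling to the 75th percentile, the deposited table, the filter, the slide, every array as a sample, the replicate number as a block, the spread model, the mean of a gene's probes and leaving out each sample.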

Additional observations from a re-analysis of the deposited data

How the results depend on the processing

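All calls of Gjb2 and Gjb6 held in their 21 alternatives, with the otosphere minus CSE difference from -1.90 to -1.54 for Gjb2 and from -4.51 to -3.72 for Gjb6. Over the 15 differences of the 5 members, 293 of 306 alternative values kept their direction and call, 6 lost the call, 6 gained it and 1 reversed. Over the 51 differences of the other named genes, 1015 of 1071 kept both, 44 lost the call, 3 gained it and 9 reversed. The gap between the falls of Gjb6 and Gjb2 ranged from 2.01 to 2.68 over 15 alternatives, with exact permutation p from 0.0119, with every array as a sample, to 0.100. Same-numbered deviations from the group means correlated from -0.39 to 0.36. Slide was not taken out of them, so they cannot decide whether the replicate numbers pair the samples. The fit with the replicate block made Gja1 1.77 higher in otospheres than in CSE (limma adjusted p = 0.0249), Gjc1 -1.09 in CSE against ESCs (0.0355), Gjd2 0.0159 in otospheres against ESCs and Gja3 0.0136 in otospheres against CSE, with 7 partner genes called. Scaling to the 75th percentile moved the median of all probes from -0.03 to -0.31 in otospheres against ESCs and from -0.06 to -0.28 in CSE against ESCs. It gave Gjb5 -0.73 in otospheres against CSE and -2.90 against ESCs (limma adjusted p = 0.0249), Ctnnd1 -0.63 and Tjp3 -0.33 in CSE against ESCs, and 6 partner genes called. In the deposited table Gja1 differed by -0.23 (otospheres minus ESCs) and -0.33 (CSE minus ESCs), neither past the threshold, since that table holds this probe on a smaller scale, as given among the other observations. Gjb5 in CSE against ESCs, -0.95, passed with every array as a sample (limma adjusted p = 0.0424) and with a trended, robust spread (0.0329). Within the first and second slide the differences were 1.84 and 0.000583 for Gja1 in otospheres against CSE, -0.99 and -3.38 against ESCs, -0.22 and -1.75 for Gjc1 in otospheres against CSE, and -1.61 and -0.31 for Gjc1 in CSE against ESCs. Leaving out each sample gave -2.58 to -1.83 for Gja1 (-1.92 without OS4 and OS5) and -2.41 to -1.48 for Gjc1 in otospheres against ESCs, -1.21 to -0.68 for Gjb5 in CSE against ESCs (past the threshold only without the second CSE sample, at -1.20), and 5 to 11 partner genes called. In otospheres against ESCs it gave -0.14 to 0.82 for Cdh2, -0.35 to 0.11 for Dbn1 and -0.11 to 0.63 for Gjc3, with -0.64 to 1.05 for Tjp3 in CSE against ESCs and -0.22 to 0.11 for Gja3 in otospheres against CSE. Beyond the table's scale, the cause was not tested. Precision is limited by the 2 ESC samples, and Gjb5 by its signal near background.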

Other observations

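In the deposited log2 table, Gja1 had values from 0.576 to 1.01, against 6.16 to 10.01 from the scanner files, a ratio of 0.0935 to 0.101 on each array. The ratio followed the number of spots per probe. Its median was 0.0994 over the 372 probes of the table spotted 10 times, 0.498 over the 29 spotted 2 times and 0.976 over the 43256 spotted once. Multiplying the table by the number of spots, which was added once these ratios had been seen, gave Gja1 differences of -2.33 for otospheres against ESCs (limma adjusted p = 0.0253) and -3.35 for CSE against ESCs (0.00575). Of the members, Gja1 was the only probe spotted more than once.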
